A study of Saccharomyces cerevisiae with 6 samples.

Results

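Tandem spacers are the stretches of DNA between neighbouring genes that are read in the same direction. Here they were taken as the intervals between adjacent, non-overlapping nuclear protein-coding genes on the same strand of the Saccharomyces cerevisiae R64 annotation. There were 2828 tandem spacers among 5868 spacers of all orientations between the 6002 nuclear protein-coding genes. The others were 1527 divergent spacers, which lie between 2 gene starts, and 1513 convergent spacers, which lie between 2 gene 3′ ends. A further 69 pairs of tandem genes overlapped and 1 pair abutted, and these had no spacer. Annotated gene spans are coding spans, so a spacer also holds the untranslated parts of both neighbouring transcripts. Tandem spacers were 4 to 12181 bp long, with a median of 401 bp, and made up 13.7% of the nuclear genome.

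The study mapped contacts between chromatin and nuclear pores by chromatin immunoprecipitation and sequencing (ChIP-seq) of the scaffold nucleoporin Nic96 carrying a myc tag. Peak lists were at hand for 2 strains, both grown at 25 °C and then given a heat shock of 15 min at 37 °C. The tho strain lacked MFT1 (mft1::NatMX) and carried Nic96-13myc-KanMX, and the wt strain carried Nic96-13myc-KanMX with an intact MFT1. All strains were MATalpha derivatives with his3Δ1, leu2Δ0, lys2Δ0 and ura3Δ0, and each held the plasmid pRS313. Each list gives peaks of 1 tagged library over 1 untagged library of the same genotype and temperature, the untagged tho control being mft1::KanMX. There was 1 library per strain, so no value below has a replicate check and no p-value is given. Intervals are exact 95% intervals that cover counting error only, and the sequencing depth is unknown.

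In a tandem pair the upstream gene ends and is polyadenylated in the same interval in which the promoter of the downstream gene lies, so a position in the spacer can belong to the end of one transcription unit or to the beginning of the next. The terms upstream and downstream follow the direction of transcription here. Nic96 belongs to the inner ring scaffold of the nuclear pore complex, which can be bound by active genes in yeast. Mft1 is a subunit of the THO complex, which packages nascent mRNA, and loss of THO is known for the build-up of R-loops, in which the transcript pairs with its template DNA.

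The sequences below show the tRNA genes in which the summits of both lists lay, 6 in all, inside tandem spacers. They are printed in the direction of transcription of the tRNA gene, with coordinates of R64 (sacCer3), and capitals mark the box B match, the internal promoter element to which TFIIIC binds (GTTCNANNC). The pair of tRNA-Val genes had the same sequence, so the 6 genes held 5 different sequences.
SSA1/ERP2, TRN1, tRNA-Pro, chrI:139152-139254, + strand: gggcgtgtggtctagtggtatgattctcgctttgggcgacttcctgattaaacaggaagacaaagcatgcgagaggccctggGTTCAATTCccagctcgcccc
DFP3/YCR006C, SUF2, tRNA-Pro, chrIII:123577-123648, - strand: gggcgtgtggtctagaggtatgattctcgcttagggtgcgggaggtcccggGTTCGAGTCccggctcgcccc
YER181C/SLO1, YNCE0029C, tRNA-Ile, chrV:551285-551358, - strand: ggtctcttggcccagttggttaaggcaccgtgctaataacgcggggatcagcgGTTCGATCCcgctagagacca
FAB1/CSS2, YNCF0009C, tRNA-Ser, chrVI:191513-191613, - strand: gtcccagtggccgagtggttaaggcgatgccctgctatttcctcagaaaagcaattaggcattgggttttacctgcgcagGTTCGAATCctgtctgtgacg
MTC3/VRG4, YNCG0002C, tRNA-Val, chrVII:73829-73902, - strand: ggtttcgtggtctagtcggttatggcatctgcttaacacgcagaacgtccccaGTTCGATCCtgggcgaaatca
ALG13/RIM8, YNCG0018C, tRNA-Val, chrVII:412294-412367, - strand: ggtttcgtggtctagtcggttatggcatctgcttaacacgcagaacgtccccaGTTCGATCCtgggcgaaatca

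The next lines show 30 bases around the wt summit of the 5 spacers whose wt summit lay in an annotated telomere region, read in the direction of the spacer's genes, with the summit base in capitals. The first 4 windows, picked after the sequences were seen, shared the run gtacgtaccga of 11 bases, and the window of PAU1/YJL225C did not hold it. Every 75-mer of the 5 peaks occurred again in the genome.
PAU9/YBL111C, chrII:5318-5347, - strand: ttgaaaacgaaagtAcgtaccgactacttt
PAU10/YRF1-1, chrIV:1525989-1526018, + strand: gaaattgaaaacgaaAgtacgtaccgacta
PAU14/YIL177C, chrIX:6458-6487, - strand: atggaaattgaaaaCgaacgtacgtaccga
IMD2/YHR218W, chrVIII:557492-557521, + strand: cgaaagtacgtaccgActactttatttttg
PAU1/YJL225C, chrX:6501-6530, - strand: gagcaacgaacagaAtcctggttctcctcg

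In the tho list, peaks lay in tandem spacers more often than under uniform placement, and in the wt list less often. Of 571 nuclear tho peaks at q under 0.05, 145 had their summit in a tandem spacer (25.4%, interval 21.9 to 29.2%). Of 993 nuclear wt peaks, 36 had (3.63%, interval 2.55 to 4.98%). Placing each peak uniformly along its own chromosome would put 13.9% of summits there in either list, so tho summits were at 1.83 times and wt summits at 0.261 times that level. Genes held 897 of the 993 wt summits (90.3%) and 310 of the 571 tho summits (54.3%). Since genes make up most of the genome, large shares are expected there under uniform placement too. Per Mb of gene there were 102.0 wt summits, against a nuclear mean of 82.3, and 35.3 tho summits, against a nuclear mean of 47.3.

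Per length of DNA, tho and wt placed their summits differently. Tandem spacers held 87.7 tho summits per Mb (interval 73.97 to 103.1) and 21.8 wt summits per Mb (15.2 to 30.1). Divergent spacers, which hold a pair of promoters, had 90.1 tho summits and 25.4 wt summits per Mb, and their intervals overlapped those of tandem spacers in both strains. Convergent spacers, which hold only gene ends, had 21.1 tho summits and 19.2 wt summits per Mb. The tho density of tandem spacers was above that of convergent spacers and of genes (35.3 per Mb), with no overlap of the intervals. In wt, gene bodies had 102.0 summits per Mb, above each kind of spacer. A difference between the strains rests on 1 list each, which were called separately and are of unequal length, and strain and library cannot be told apart.

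**Figure D1:**
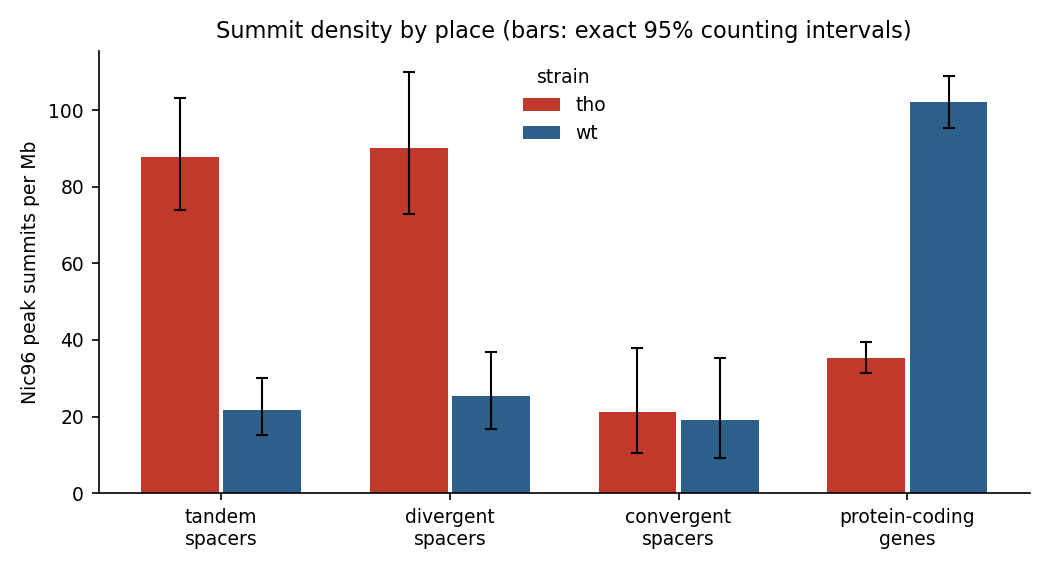
Summits of Nic96 peaks per Mb in tandem, divergent and convergent spacers and in protein-coding genes, in tho (red) and wt (blue); error bars are exact 95% counting intervals from 1 library per strain. The tho bar stands at 87.7 per Mb in tandem spacers and 35.3 in genes, the wt bar at 21.8 in tandem spacers and 102.0 in genes.

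Counted by spacer, 238 of 2828 tandem spacers were overlapped by at least 1 bp of a tho peak (8.42%, interval 7.42 to 9.50%), where 7.23% of spacers of all orientations were. A wt peak overlapped 73 of them (2.58%, interval 2.03 to 3.24%), where 2.45% of spacers of all orientations were. In both strains the share of tandem spacers was thus near that of all spacers. A summit lay in 139 tandem spacers in tho (4.92%, against 4.18% of all spacers) and in 36 in wt (1.27%, against 1.23% of all spacers). In tho, 6 of these spacers held 2 summits. Peaks covered 85018 bases of tandem spacers in tho, which were 5.14% of their bases, against 3.36% of all nuclear bases. In wt they covered 18522 bases, 1.12% of tandem spacer bases, against 3.85% of all nuclear bases. Of the overlapped spacers, 46 in tho and 6 in wt lay wholly under peaks. Spacers of both strands were overlapped alike, 114 on the forward and 124 on the reverse strand in tho, and 38 and 35 in wt.

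Long spacers were overlapped more often than short ones. In tho, 2.11% of spacers up to 200 bp long, 4.26% of those of 200 to 400 bp, 8.06% of those of 400 to 800 bp and 22.2% of those over 800 bp were overlapped. The wt shares were 1.27, 0.852, 1.18 and 10.1% in the same classes. The density of summits per base also went up with length in tho. Spacers of 200 to 400 bp held 22.8 tho summits per Mb, those of 400 to 800 bp 69.1 and those over 800 bp 133.6. In wt the same densities were 2.85, 1.98 and 44.5 per Mb, so 34 of the 36 wt summits lay in spacers over 800 bp. The median spacer that held a summit was 1093 bp long in tho and 1993.5 bp in wt.

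The tho peaks with a summit in a tandem spacer were 241 to 4860 bp wide, with a median of 407 bp, and the wt peaks 231 to 2321 bp, with a median of 377 bp. Their fold enrichment over the untagged library had a median of 1.94 in tho and 1.90 in wt. Peaks with the summit in a gene had a median of 1.86 in tho and 1.75 in wt. Spacer and gene peaks thus had similar median folds in either list, and most were low. The median −log10 q was 6.50 for spacer peaks and 7.12 for gene peaks in tho. In wt it was 4.75 for spacer peaks and 2.42 for gene peaks.

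Within the spacer, tho summits lay nearer to the 3′ end of the upstream gene than to the start of the downstream gene. This was so for 87 of 145 tho summits (60%, interval 51.5 to 68.0%), where uniform placement gives 50%. For wt it was 15 of 36 (41.7%, interval 25.5 to 59.2%), an interval that holds 50%. The tilt in tho was strongest in the shorter spacers. In spacers of 400 to 800 bp, 29 of 35 tho summits were nearer to the upstream gene (82.9%, interval 66.4 to 93.4%), and in those of 200 to 400 bp 6 of 8 were. In spacers over 800 bp it was 52 of 102 (51.0%, interval 40.9 to 61.0%), an interval that holds 50%. Without spacers within 20000 bp of a chromosome end, the tho share over all lengths was 65.6% (86 of 131). The parts of length and of chromosome ends were not told apart. The wt list had 1 summit in each of the shorter classes, both nearer to the upstream gene, and 13 of 34 in spacers over 800 bp (38.2%, interval 22.2 to 56.4%).

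The tho summits were fewest in the last stretch of the spacer, before the downstream gene. Cut into 5 equal pieces from the upstream to the downstream gene, tandem spacers held 22, 39, 34, 37 and 13 tho summits. The last piece had 8.97% of them (interval 4.86 to 14.8%), where uniform placement gives 20%. The wt pieces held 8, 5, 2, 10 and 11 summits, so the middle piece was the emptiest (5.56%, interval 0.680 to 18.7%). Within 200 bp of the upstream gene lay 37 tho summits, against 9 within 200 bp of the downstream gene. In wt these counts were 7 and 4.

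**Figure D2:**
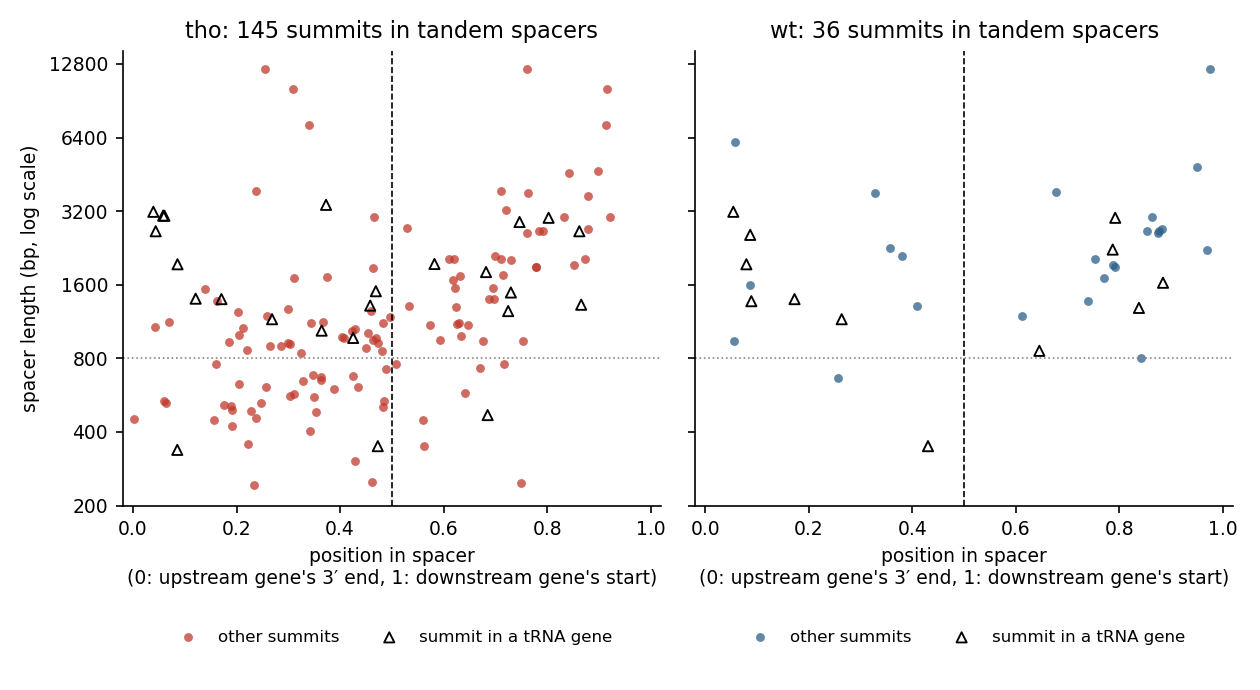
Each point is 1 summit in a tandem spacer, by its position from the upstream gene's 3′ end (0) to the downstream gene's start (1) and by spacer length in bp on a log scale, for tho (left, 145 summits) and wt (right, 36 summits); triangles are summits in tRNA genes, the dashed line is the middle of the spacer and the dotted line marks 800 bp. Below 800 bp the tho points crowd to the left of the dashed line, and the wt panel holds 2 points there.

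Seen in distance from the gene edges, with each base counted at its nearer edge, the tho density climbed over the first 300 bp of spacer on the upstream side and over the first 600 bp on the downstream side. Steps further from an edge hold bases of longer spacers only. On each side there were 275514 bases in the first 100 bp and 30098 at 500 to 600 bp. The tho density also rose with spacer length, and the parts of distance and length were not told apart. On the upstream side it was 0.998 times the nuclear mean in the first 100 bp of the spacer, 2.33 times in the next 100 bp and 4.09 times at 200 to 300 bp. Beyond that it stood at 3.14 and 4.58 times up to 500 bp and then fell away, to 1.28 times at 700 to 800 bp. On the downstream side the last 100 bp before the gene's start held 1 tho summit in 275514 bases, 0.0767 times the nuclear mean, and the 100 bp before those held 4, 0.423 times the mean. Further from the downstream gene the density was 6.11 times the mean at 400 to 500 bp and 6.32 times at 500 to 600 bp. The density was therefore lowest just before the downstream gene's start and far lower there than just past the upstream gene's 3′ end, where the first 100 bp held 13 summits.

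The tho density was also raised inside the end of the upstream gene, at 1.58 times the mean in its last 100 bp and 2.63 times in the 100 bp before those. In the first 100 bp of the downstream gene it was 1.05 times the mean, and 0.709 times in the next 100 bp. The wt pattern was another one. The first 100 bp of the spacer past the upstream gene and the last 100 bp before the downstream gene each held 1 wt summit, 0.0441 times the mean. The upstream gene itself stood at 1.25 to 2.02 times the mean between 100 and 800 bp from its 3′ end.

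**Figure D3:**
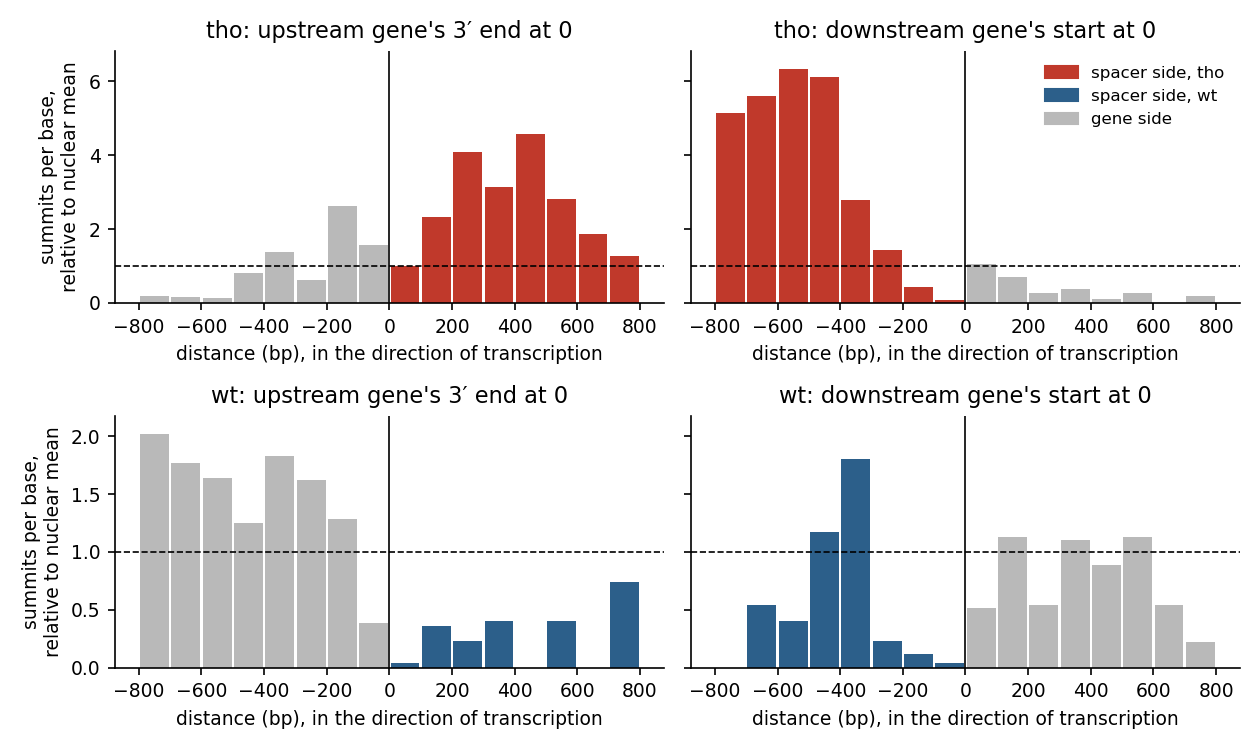
Density of summits around the edges of tandem spacers in 100-bp steps, relative to the nuclear mean of the same list (dashed line at 1), for tho (top) and wt (bottom), with the upstream gene's 3′ end (left) or the downstream gene's start (right) at 0; coloured bars are spacer bases and grey bars gene bases, each base counted at its nearer edge. The bar next to the downstream gene's start is at 0.0767 in tho and 0.0441 in wt, and the tho bar at 200 to 300 bp past the upstream gene is at 4.09. Spacer bars further from an edge come from longer spacers only.

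The reach of these peaks into the neighbouring genes was tied to the place of their summits, so it is no separate evidence of a lean. Of the 145 tho peaks with a spacer summit, 87 stayed within the spacer, 41 reached into the upstream gene only, 7 into the downstream gene only and 10 into both. They covered 17379 bases past the upstream edges and 9841 bases past the downstream edges. In wt, 23 of 36 stayed within the spacer, 8 reached into the upstream gene, 5 into the downstream gene and 0 into both, and they covered 3028 bases past the upstream edges and 609 bases past the downstream edges. Of the 3028 bases, 1865 came from the wt peak of SSA1/ERP2 alone.

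Of all peaks that touched a tandem spacer, 234 of 571 in tho (40.98%, against 28.2% under uniform placement) and 73 of 993 in wt (7.35%, against 24.3%), some had their summit in a neighbouring gene. In tho 58 had it in the upstream gene (24.8%, against 23.7% under uniform placement) and 25 in the downstream gene (10.7%, against 23.9%). In wt 16 had it in the upstream gene (21.9%, against 20.7%) and 21 in the downstream gene (28.8%, against 21.0%). The tho summits were thus scarce in downstream genes and near the uniform share in upstream genes. For wt the intervals of both shares held the uniform value.

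The highest tho fold in a tandem spacer was 24.8, in the 1157-bp spacer between SSA1, a cytosolic Hsp70 chaperone, and ERP2, a p24 family member of vesicle transport. Its 4227-bp peak covered the whole spacer and ran 2549 bp past the upstream edge, over SSA1. The wt list had its highest fold of tandem spacers, 4.11, in the same interval, with a 2321-bp peak and a summit 6 bp away, in the same tRNA-Pro gene printed above. SSA1 has a near-identical copy in SSA2, and 23.9% of the 75-mers of the tho peak and 44.2% of those of the wt peak occurred again in the genome, so its height is uncertain.

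SOL4/MGA1 came second in tho at 9.79-fold, with a 4860-bp peak. That peak covered the whole spacer and ran 742 bp past its upstream edge and 2809 bp past its downstream edge. SOL4 is a 6-phosphogluconolactonase and MGA1 a protein with a heat shock factor type DNA-binding domain. In wt this spacer had a 463-bp peak at 2.14-fold, with its summit 163 bp from that of tho. CAT8/ATR2 followed at 6.31-fold with a 3613-bp peak, CAT8 being an activator of gluconeogenic genes, and had no wt peak. Those 3 spacers lay wholly under tho peaks that extended into genes on both sides.

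Then came HSP104/PAU17 at 4.23-fold. HSP104 encodes the disaggregase that recovers heat-aggregated proteins, and the summit of this 460-bp peak lay in a tRNA gene 1267 bp past HSP104. The remaining spacers among the 8 highest in tho were PRY3/PRY1 at 4.08-fold, between sterol-binding secreted proteins, VPS55/POL32 at 3.64-fold with the summit in the tRNA gene IMT3, SHU1/STE20 at 3.56-fold and TPM1/EOS1 at 3.44-fold. TPM1, which encodes tropomyosin, also had a wt peak over the whole 533-bp spacer, at 3.04-fold with its summit in TPM1 itself. The other spacers of this paragraph had at most 10 bp of wt cover.

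The wt folds reached less high. After SSA1/ERP2 came FAB1/CSS2 at 3.25-fold, FAB1 being the kinase that makes PtdIns(3,5)P2, LPL1/ASE1 at 2.74-fold, SHC1/UBP9 at 2.53-fold and YER181C/SLO1 at 2.47-fold. Their summits all lay in tRNA genes, and the spacers FAB1/CSS2 and YER181C/SLO1 held tho summits in the same tRNA genes. ADH2/YME2, next to the glucose-repressed alcohol dehydrogenase, was at 2.47-fold with its summit 171 bp past ADH2, IRC7/YFR057W at 2.42-fold and ALG13/RIM8 at 2.21-fold, again in a tRNA gene that also held a tho summit. In tho, LPL1/ASE1, SHC1/UBP9, ADH2/YME2 and IRC7/YFR057W had no peak. Among the 5 spacers with most bases under wt peaks were MAL32/PAU24 (841 bp), YLR154C-H/YLR154C-G (830 bp) and SOA1/CSS1 (549 bp). None of them had a tho peak. YLR154C-H/YLR154C-G held ribosomal RNA genes, and its wt peak was 1.27-fold, with every 75-mer found again in the genome.

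Both lists overlapped 31 tandem spacers, 13.0% of the 238 tho spacers and 42.5% of the 73 wt spacers. The 42.5% stand beside the 8.42% of all tandem spacers overlapped in tho, and the 13.0% beside the 2.58% overlapped in wt. Both lists favoured long spacers, however. Of the 73 wt spacers 49 were over 800 bp long, a class of which tho peaks overlapped 22.2%. The part of length in the shared overlaps and shared summits was not tested. Most tho spacers, 207 of 238, had no wt peak. A summit of each list lay in 18 spacers, 12.9% of the tho and 50% of the wt spacers with a summit, where 4.92% of all tandem spacers held a tho summit and 1.27% a wt summit. The paired summits were 2 to 2596 bp apart with a median of 127 bp, and 8 were within 50 bp. Of the 18 spacers, 6 had both summits in the tRNA genes printed above, at distances of 2 to 47 bp. Another 5 ran into annotated telomere regions, PAU9/YBL111C, PAU10/YRF1-1, PAU14/YIL177C, IMD2/YHR218W and PAU1/YJL225C, and every 75-mer of these peaks occurred again in the genome in both lists.

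The other 7 were FLO1/YAR064W, COS7/MPH2, YFR054C/HXK1, SOL4/MGA1, HXT16/SOR1, ATF1/AMF1 and YOR381W-A/FIT2. FLO1 encodes a flocculin of the cell wall, HXK1 a hexokinase, ATF1 the alcohol acetyltransferase and FIT2 a cell-wall protein of iron uptake. In FIT2's spacer the summits lay at opposite ends, 709 bp from the upstream gene in tho and 53 bp in wt. In HXT16/SOR1 and COS7/MPH2 they were 23 and 91 bp apart, at a tho fold of 1.70 and a wt fold of 1.55 in HXT16/SOR1 and at a tho fold of 1.53 and a wt fold of 1.52 in COS7/MPH2. Of the 75-mers of the tho peaks, all in HXT16/SOR1 and 48.5% in COS7/MPH2 occurred again in the genome. In FLO1/YAR064W it was 73.3% and all of them for the 2 tho peaks, and 81.2% for the wt peak.

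**Figure D4:**
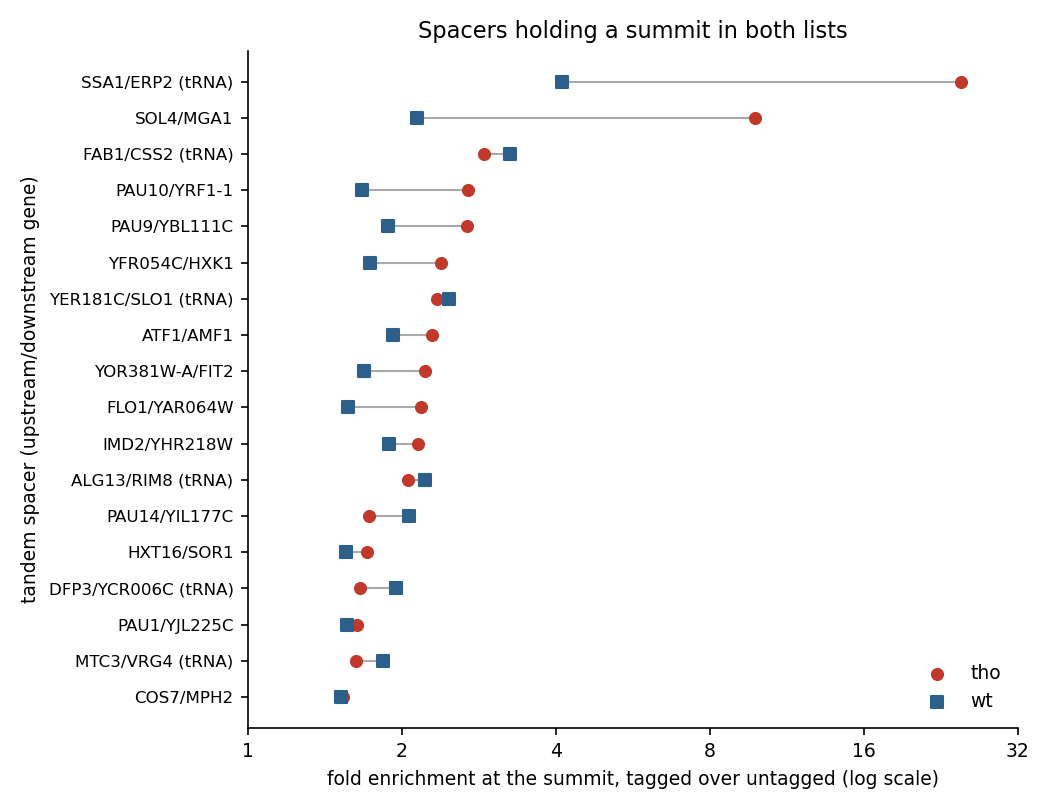
Fold enrichment at the summit, tagged over untagged library on a log scale, in the 18 tandem spacers that held a summit of both lists, tho as red circles and wt as blue squares, ordered by the tho value; "tRNA" marks spacers whose summits lay in a tRNA gene, and for spacers with 2 tho summits the higher is drawn. SSA1/ERP2 is at 24.8 in tho and 4.11 in wt, SOL4/MGA1 at 9.79 in tho and 2.14 in wt, and the other points lie below 4.

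Genes for tRNAs, which RNA polymerase III transcribes, were the feature most often met at summits. In tho 24 of 145 spacer summits (16.6%) and in wt 12 of 36 (33.3%) lay inside a tRNA gene. Tandem spacers held 135 tRNA genes, of which tho peaks overlapped 26 (19.3%) and wt peaks 12 (8.89%). Spacers with a tRNA gene were overlapped in 25 of 126 cases in tho (19.8%) and 16 of 126 in wt (12.7%). Of all tandem spacers 8.42% were overlapped in tho and 2.58% in wt. They had a median length of 1357.5 bp, against 401 bp for all tandem spacers, and the part of length in this was not tested. Without summits within 200 bp of a tRNA gene, tho summits in tandem spacers stood at 1.65 times and wt summits at 0.179 times the uniform share, alternatives chosen after seeing the data.

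Other features differed. For all tandem spacers the overlapped shares were 8.42% in tho and 2.58% in wt. The 21 tandem spacers with an annotated telomere region were overlapped in 8 cases in tho (38.1%) and 10 in wt (47.6%). The 8 tho and 5 wt summits in them lay in peaks of which at least 95.06% of 75-mers occurred again in the genome. Origins of replication lay in 153 spacers, of which 23 were overlapped in tho (15.0%) and 16 in wt (10.5%), but the origin itself lay under a peak in 8 of 154 cases in tho and 2 in wt. Spacers with a telomere region had a median length of 1272 bp and those with an origin 755 bp, against 401 bp for all. The part of length in these shares was not tested. None of the 28 spacers with a snoRNA gene was overlapped in either list (upper limit of the interval 12.3%). In the 2463 tandem spacers with no other annotated feature, tho peaks overlapped 186 (7.55%, interval 6.54 to 8.67%) and had 98 summits, and wt peaks overlapped 37 (1.502%, interval 1.06 to 2.07%) and had 12. The tho summits in these plain spacers were at 1.77 times their uniform share, and the wt summits at 0.125 times.

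Repeats and chromosome ends took a larger part of the wt summits. Peaks of which more than 50% of 75-mers occurred again in the genome made up 16 of 145 tho spacer summits (11.03%) and 11 of 36 in wt (30.6%). Among peaks with the summit in a gene these shares were 9.68% in tho and 9.48% in wt. Within 20000 bp of a chromosome end lay 17 in tho (11.7%) and 12 in wt (33.3%). Uniform placement would put 13.9% of all nuclear summits in tandem spacers, and 12.7% in tandem spacers further from the ends, in either list. Without spacers near the ends, the share of tho summits nearer to the upstream gene was 65.6% (86 of 131, interval 56.9 to 73.7%) and that of wt summits 56.0% (14 of 25, interval 34.9 to 75.6%), on the other side of 50% from the wt value over all spacers.

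The DNA at the summits was richer in G and C than the spacers at large. Windows reaching 50 bp to either side of spacer summits had a median GC content of 45.5% in tho and 45.5% in wt, against 34.7% for all windows centred in tandem spacers. Summits in genes had 45.5% in tho and 46.5% in wt, against 39.6% for all windows centred in genes. Without tRNA genes the spacer medians were 45.5% in tho and 44.6% in wt. Summits thus had much the same GC content in spacers and in genes in both lists, above that of the windows at large. The part of GC content in the results above was not tested.

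Motifs of known factors were counted on both strands in the same windows. A heat shock element core, TTCNNGAA, stood in 12 of 145 tho windows (8.28%, interval 4.35 to 14.01%) and 1 of 36 wt windows (2.78%), against 4.42% of all windows in tandem spacers. The stress response element AGGGG stood in 10.3% of tho, 8.33% of wt and 7.52% of all windows, and the Reb1 site TTACCCG in 4.14% of tho, 0 of 36 wt and 1.63% of all windows. The TATA element TATAAA stood in 7 tho windows (4.83%, interval 1.96 to 9.69%) and in 0 of 36 wt windows (upper limit 9.74%), against 19.7% of all windows. The box B letters GTTCNANNC stood in 17.9% of tho, 33.3% of wt and 3.19% of all windows, and in 4.13% of tho and 4.17% of wt windows away from tRNA genes. Among these motifs TATAAA was scarcer at summits than in the spacers at large, in windows whose GC content was also higher.

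Spacers beside heat-induced genes were looked at as lists. Of 17 tandem spacers on the 3′ side of a chaperone or heat shock gene, tho peaks overlapped 9 (52.9%, interval 27.8 to 77.0%) and wt peaks 5 (29.4%, interval 10.3 to 56.0%). The wt count includes 4 bp past HSP42 and 10 bp past HSP104. Both were under peaks with the summit in the downstream gene, which did not reach the heat shock gene. On the 5′ side of such genes it was 3 of 22 in tho (13.6%) and 2 of 22 in wt (9.09%). For genes of trehalose and glycogen metabolism, reserves built up under stress, tho peaks overlapped 5 of 10 spacers on the 3′ side and 3 of 9 on the 5′ side, and wt peaks 0 of both. These shares stand beside 8.42% in tho and 2.58% in wt for all tandem spacers. The lists are small and were chosen with earlier results of these data known, and no test was made of them.

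The chaperone spacers overlapped on the 3′ side in tho were those past SSA1, HSP42, SSA4, BTN2, KAR2, SSC1, UBI4, HSP104 and HSP82. Only in those past SSA1, BTN2 and HSP104 did the tho summit lie in the spacer, each time in a tRNA gene. The spacer past SSA4, the stress-induced Hsp70, lay wholly under a peak in both lists, 284 bp long, with folds of 11.6 in tho and 4.40 in wt and both summits in the downstream gene RTT105. HSP82, an Hsp90 chaperone, had all 237 bp of its 3′ spacer covered in tho and 81 bp in wt, under a tho peak of 7.69-fold with its summit in a downstream gene. The spacer past HSP42, a small heat shock protein gene, had 212 bp covered in tho and 4 bp in wt. In both lists that peak had its summit in the downstream gene SUP35 and did not reach HSP42. Those past KAR2, the Hsp70 of the endoplasmic reticulum, SSC1, the mitochondrial Hsp70, and UBI4, the polyubiquitin gene, had 90, 144 and 105 bp covered in tho and none in wt.

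On the 5′ side, the tho list had a summit in the spacers before HSP26, at 2.17-fold, and BTN2, at 3.01-fold, and covered the whole 567-bp spacer before UBI4. HSP26 encodes a small heat shock protein and BTN2 a factor that sorts misfolded proteins. The wt list had a summit 799 bp past YDR170W-A in the 2103-bp spacer before HSP42, at 1.48-fold, and 53 bp of cover before HSP31. None of these 5′ spacers was overlapped in both lists.

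Among the reserve carbohydrate genes, spacers past TPS1 and TPS2, the enzymes of trehalose synthesis, GSY1, a glycogen synthase, UGP1, which makes UDP-glucose, and GDB1, the glycogen debranching enzyme, were overlapped in tho. The summit lay in the spacer past TPS1 alone, 33 bp from its 3′ end at 2.12-fold. Before GSY1 and GSY2 the summits were 236 and 277 bp past the upstream gene, at 2.34-fold and 1.84-fold. The 312-bp spacer before TSL1, a subunit of the trehalose synthase complex, lay wholly under a 7176-bp tho peak of 21.8-fold with its summit in TSL1.

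Genes of glycolysis and fermentation had 1 of 9 spacers overlapped on the 3′ side in each list, past GLK1 in tho and past ADH2 in wt. On the 5′ side 3 of 12 were overlapped in tho, before HXK1, HXK2 and ADH1, and 1 of 12 in wt, before HXK1. Spacers beside cytosolic ribosomal protein genes were overlapped in 3 of 65 cases on the 3′ side (4.62%) and 2 of 60 on the 5′ side (3.33%) in tho, and in none in wt. Their tho summits lay past RPL43B and RPS7B and before RPL31B. The ribosomal protein shares were below those of all tandem spacers in both strains, with intervals that held the all-spacer value on each side.

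**Figure D5:**
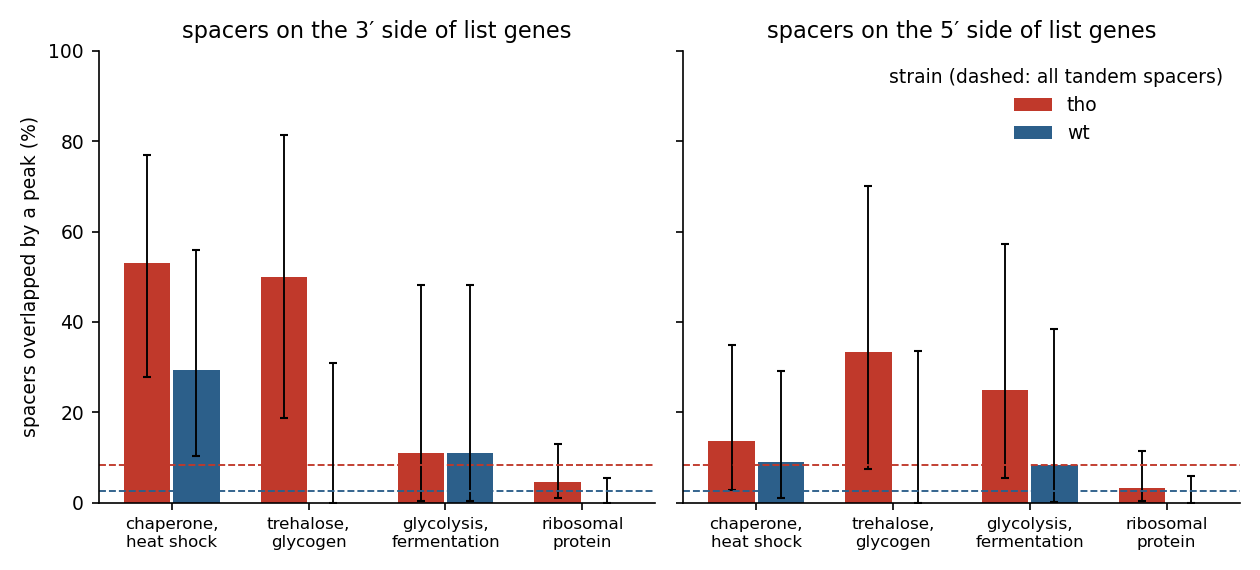
Percent of tandem spacers overlapped by a Nic96 peak on the 3′ side (left) and 5′ side (right) of genes of 4 lists, in tho (red) and wt (blue); error bars are exact 95% counting intervals and dashed lines are the shares of all tandem spacers, 8.42% in tho and 2.58% in wt. The 3′ bars of chaperone and heat shock genes are at 52.9% in tho and 29.4% in wt, and those of ribosomal protein genes at 4.62% in tho and 0 in wt. The wt 3′ bar of chaperone and heat shock genes includes overlaps of 4 and 10 bp.

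Wide peaks joined neighbouring tandem spacers. In tho 15 peaks overlapped more than 1 tandem spacer and in wt 1 did, the largest number being 4 under a 5839-bp tho peak of 11.4-fold that ran from GDH3 over BDH2, BDH1 and ECM1 to CNE1. GDH3 is a glutamate dehydrogenase, and BDH1 encodes a butanediol dehydrogenase. A second such peak, 6455 bp wide and 6.47-fold, touched the spacers NUD1/ALD4 and YOR376W/YOR376W-A, and covered 1314 bp of the 1636 bp of YOR376W/YOR376W-A. None of these spacers had a wt peak.

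For the genes changed in the strains, the tandem spacers between PIF1 and MFT1 and between LOC1 and NIC96 had no peak in either list. A peak list cannot show a deletion, so the mft1 genotype was not checked by these data.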

How the data were processed

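The lists hold narrow peaks that the authors called with MACS2 in tagged over untagged libraries of each strain at 37 °C. Behind them are Bowtie2 alignments of read pairs without mismatches, deduplicated in SAMtools. The submitters' processing notes name deepTools 3.3.2 too. Peak lists of 2 of the 6 samples were used, with sacCer3 coordinates, which R64 shares. Each deposited peak has a fold enrichment at its summit, a −log10 p and a −log10 q, and a deposited score, which equals 10 times the −log10 p cut to a whole number. The deposited lists also hold peaks with q above 0.05, so peaks with −log10 q above 1.301 were kept. This left 608 of 664 tho peaks, 37 of them mitochondrial and left out, and 993 of 1248 wt peaks, all nuclear. Counts per library are not in these lists, so depth is unknown.

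Spacers were the gaps in the union of nuclear protein-coding genes of the annotation SGD R64. An overlap needed 1 bp. Uniform placement was computed exactly, each peak keeping its width and chromosome and taking every position once. Shares have Clopper-Pearson intervals and densities exact Poisson intervals, both at 95%. Repeats were 75-mers found again on either strand of the genome, mitochondrial sequence included. The counting code was tested on simulated data. Python 3.11.15, numpy 2.4.6, scipy 1.17.1 and pandas 2.3.3 were used. Groups follow the labels, and no test between strains was possible with 1 library each. Spacers named are those with a summit in both lists, the 8 highest folds and the 5 with most bases covered in a list, and those with a summit beside a gene of the lists, with HSP104, SSA4, MFT1 and NIC96 as checks. Spacers and genes named outside this rule were chosen after their values were seen: TPS2, GDB1, UGP1, GLK1, KAR2, SSC1, HSP82, HSP42/SUP35, RTT105, TSL1, HSP31, UBI4, and the spacers GDH3/BDH2 to ECM1/CNE1 and NUD1/ALD4. The members and lists were chosen with earlier results of these data known.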

Additional observations from a re-analysis of the deposited data

How the results depend on the processing

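Of 73 alternative values, 57 kept within the counting interval, or within 1.5 times the count, of the value reported, and 16 moved out of it. No value whose interval excluded the uniform level crossed that level under the alternatives run. Requiring 100 bp of cover gave 7.32% of tandem spacers overlapped in tho and 1.66% in wt, and requiring the summit 4.92% in tho and 1.27% in wt. A limit of q under 0.01 gave 2.02% in wt. In spacers with no other annotated feature 1.502% were overlapped in wt, 14 spacers were overlapped in both lists, and of overlapping peaks 54.8% in tho and 32.4% in wt had their summit in the spacer (62.0% in tho and 49.3% in wt over all spacers). The uniform shares there were 43.5% in tho and 51.7% in wt (49.4% and 57.3% over all spacers), and the wt interval, 18.01 to 49.8%, no longer held its uniform share. In the same spacers wt peaks overlapped at 0.199 and wt summits lay at 0.125 times the uniform level. Without spacers within 20000 bp of a chromosome end, 1.90% were overlapped in wt, and wt peaks overlapped at 0.231 times the uniform level. With alternatives chosen after seeing the data, wt summits lay at 0.179 times the uniform level away from tRNA genes, and in spacers up to 800 bp long 81.4% of tho summits (35 of 43) and 100% of wt summits (2 of 2) were nearer to the upstream gene. With all deposited peaks tho had 150 and wt 44 summits in tandem spacers. No paired analysis was possible because each strain has 1 library and the labels carry no replicate numbers. The wt side share rests on 36 summits, and its value lay on either side of 50% among the alternatives. Depth, which limits what each list could call, is unknown.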

Other observations

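Several tho summits within 100 bp of a spacer edge or in a spacer up to 400 bp long stood beside genes of no list above. KIP2/PRM4, past a kinesin, had its tho summit 70 bp from KIP2 at 2.89-fold, and BAP2/TIP1, between an amino acid permease and a cell-wall mannoprotein, had it 79 bp from BAP2 at 2.62-fold. MTC7/MCM3 had it 29 bp from MTC7 at 1.78-fold, inside a tRNA gene and before a subunit of the replicative helicase. RGT1/AIM26 was the spacer with a tho summit within 100 bp of the downstream gene, at 62 bp and 2.32-fold, past a repressor of hexose transporter genes. APA2/QCR7 and PHO4/QCR6, each before a gene of the respiratory bc1 complex, were, with RGT1/AIM26, the shortest tandem spacers that held a summit, and had tho summits 57 and 116 bp past the upstream gene, at 1.60-fold and 1.55-fold.

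In wt, MIX23/PAU9 had its summit 69 bp before PAU9 at 2.04-fold, in a peak with 74.9% of its 75-mers repeated. SYC1/GAC1, before a regulatory subunit of the Glc7 phosphatase, had it 139 bp past SYC1 at 1.83-fold, and STL1/PAD1, past a glycerol transporter, had it 462 bp before PAD1 at 1.71-fold. TVS1/BUD31 held a wt summit in a tRNA gene at 2.17-fold, and the next spacer along, BUD31/HCM1, a tho summit 91 bp past BUD31 at 2.13-fold. These spacers were picked after their values were seen.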
